A study of Rattus norvegicus with 12 samples.

Results

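The 9 genes described here encode secreted proteins of the transforming growth factor beta (TGF-beta) superfamily and one of their extracellular antagonists, measured in the uterus of rats given estradiol (E2), 3-methylcholanthrene (3-MC) or both. They are the activin subunit genes Inhba and Inhbb, the antagonist follistatin (Fst), the bone morphogenetic protein (BMP) genes Bmp2, Bmp4 and Bmp7, and the TGF-beta genes Tgfb1, Tgfb2 and Tgfb3. A gene was taken as the probe set annotated with its symbol alone, and each of the 9 genes had 1 such probe set, out of 14506 genes measured in this way.

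Activins, TGF-betas and BMPs bind receptor kinases on the cell surface, which phosphorylate Smad proteins that enter the nucleus and regulate transcription. Activins and TGF-betas act mainly through Smad2 and Smad3, and BMPs through Smad1, Smad5 and Smad9. Follistatin, noggin, chordin-like proteins and gremlin hold ligands outside the cell. Latent TGF-beta binding proteins, other than the product of Ltbp2, anchor TGF-beta in the matrix. In the mouse uterus, BMP and activin signalling take part in implantation and in the conversion of stroma to decidua.

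All 12 rats were ovariectomized young adult Lewis females, and 4 groups of 3 rats were compared. They received the DMSO vehicle, E2 at 4 µg/kg per day, 3-MC at 15 mg/kg per day, or E2 and 3-MC together at these doses. 3-MC is a polycyclic aromatic hydrocarbon that activates the aryl hydrocarbon receptor (AhR). Treatment lasted 3 days, the uterus was taken 24 h after the last dose, and the RNA of each rat went onto 1 Affymetrix array. Removal of the ovaries, shared by all 4 groups, takes away the main source of estrogen, so each response to E2 is a response of a hormone-deprived uterus. The RNA came from whole uterus, so fewer cells of a type and less RNA per cell cannot be told apart.

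The values are probe set intensities on a linear scale. Differences were tested with limma on log2(intensity + 16) over all 12 arrays, and a gene was called when its Benjamini-Hochberg adjusted p over 10154 tested genes was under 0.05. A level is given below as an intensity, and a difference as a log2 difference with its standard error (SE). Array medians ran from 86.3 to 124 intensity units, with those of the E2 rats (86.3 to 107.6) below those of the E2+3-MC rats (110.3 to 118). Vehicle rat 1 stood apart, its log2 values having an interquartile range of 2.70 where the remaining arrays had 1.87 to 2.35. It had the highest vehicle value for each of the 9 genes, so the differences printed for the 8 tested genes that moved by over 1.5 times or changed their call without it are given both ways. Correlations between rats of a group ran from 0.924 to 0.988 over the 10154 tested genes, and the array number limits the precision. Markers of epithelium, stroma, myometrium and endothelium were all above the limit for dim genes. Of the granulosa cell markers, Fshr and Inha were below it. Amh was above it, at 67.9, 115.5 and 131.4 in vehicle rats.

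Promoter sequences are shown for 3 of the 4 ligand genes called between E2 and vehicle, which are those with an entry in the RefSeq promoter table (build GRCr8). 6 of the 9 genes had an entry there, with 250 bases before and 50 bases from the listed start onwards. Fst, Bmp2 and Bmp7 had none. Capitals mark any of 3 short motifs searched on both strands: GGTCA, one arm of the estrogen response element; GCGTG, the core of the AhR response element; and CAGAC, which holds the core of the Smad box. The Inhba sequence lies at chr17:53804459-53804758, the Bmp4 sequence at chr15:22101884-22102183 and the Tgfb3 sequence at chr6:111456897-111457196, all on the minus strand.
Inhba: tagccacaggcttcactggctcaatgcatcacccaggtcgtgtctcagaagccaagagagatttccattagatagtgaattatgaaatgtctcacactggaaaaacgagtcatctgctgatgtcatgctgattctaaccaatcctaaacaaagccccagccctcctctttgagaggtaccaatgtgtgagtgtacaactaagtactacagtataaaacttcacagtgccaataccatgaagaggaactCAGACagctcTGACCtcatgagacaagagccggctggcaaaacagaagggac
Bmp4: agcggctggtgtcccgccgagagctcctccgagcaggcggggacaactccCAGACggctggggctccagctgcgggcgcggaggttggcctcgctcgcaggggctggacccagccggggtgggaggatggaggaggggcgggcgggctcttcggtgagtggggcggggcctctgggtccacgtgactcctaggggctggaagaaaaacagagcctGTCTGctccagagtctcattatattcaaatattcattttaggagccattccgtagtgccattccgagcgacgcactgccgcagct
Tgfb3: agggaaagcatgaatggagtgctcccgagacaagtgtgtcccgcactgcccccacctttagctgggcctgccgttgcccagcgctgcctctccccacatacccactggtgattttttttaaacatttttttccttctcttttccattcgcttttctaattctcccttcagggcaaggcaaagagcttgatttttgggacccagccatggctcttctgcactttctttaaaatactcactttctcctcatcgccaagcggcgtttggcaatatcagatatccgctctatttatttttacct

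The Inhba sequence held 1 estrogen motif, whose first base was the 9th base counted from the start, and 1 Smad motif beginning 2 bases before the start. The Bmp4 sequence held 2 Smad motifs, beginning 200 and 35 bases before the start. The Tgfb3 sequence held none of the motifs. Among 33469 promoters of the same length, 40.5% held the estrogen motif, 29.7% the AhR core and 50.1% the Smad motif, so each motif is common. The full palindrome GGTCANNNTGACC, which contains that arm on each strand, was in 0.0269% of promoters and in none of the 6. Outside the printed sequences, Tgfb1 held 1 AhR core beginning 220 bases before its start, and Tgfb2 held 2, at 247 and 133 bases before. The listed start lies inside the annotated gene, 6434 bases from its outer end for Inhba, 11212 for Bmp4 and 700 for Tgfb3, so other starts of these genes have other upstream sequence.

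E2 alone raised Inhba and lowered Bmp4, Bmp7 and Tgfb3, while no difference of the other ligand genes passed the test. Of the 8 genes tested, 1 rose and 3 fell with E2 against vehicle, beside 18.1% of all tested genes called. The median log2 difference of the 8 was -0.47, against -0.11 over all tested genes. In all, 8.7% of tested genes were called higher and 9.44% lower, a split that became 1535 genes higher and 801 lower after each array was centred on its median. Centring moved the median of all tested genes from -0.11 to 0.05. In rats given 3-MC, the differences of Inhba, Bmp4, Bmp7 and Tgfb3 had the same sign, but 0 of 8 genes were called, beside 8.21% of all tested genes. The plot of intensities by rat shows all 9 genes, and the plot of differences sets the responses side by side.

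**Figure D1:**
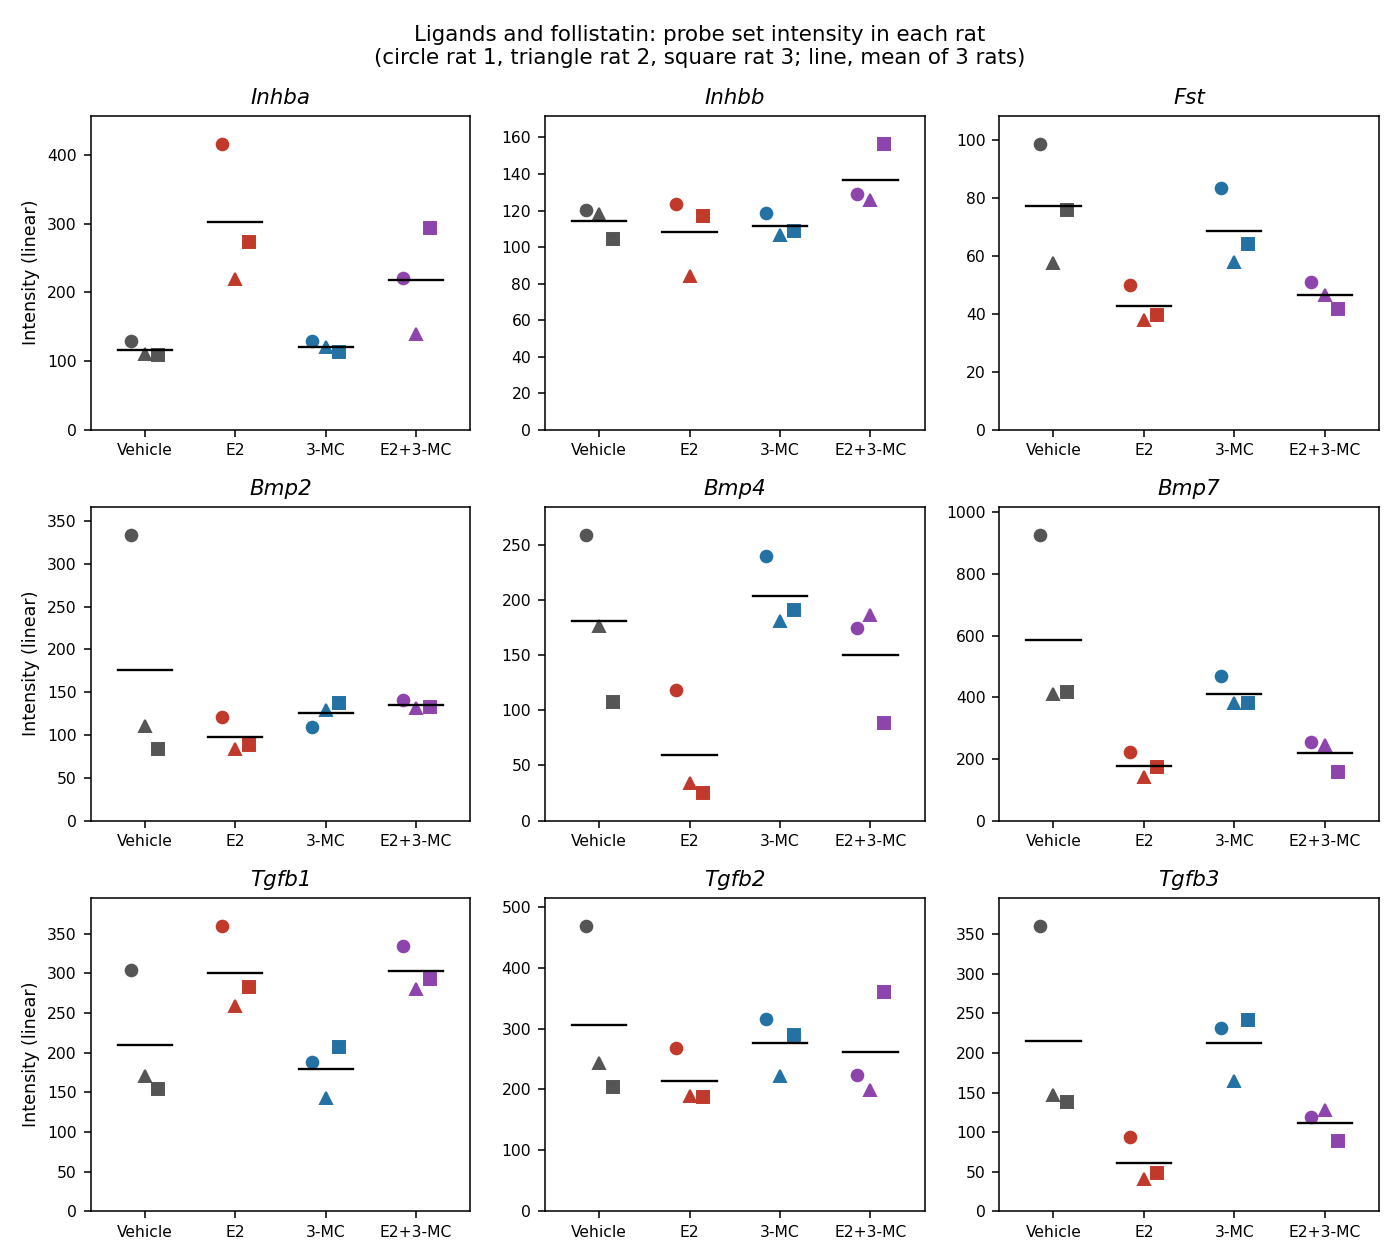
Probe set intensity (linear, vertical axis from 0) of the 9 genes in each of 12 rats by group, with circles, triangles and squares for rats 1, 2 and 3 and a line at the mean of 3 rats. The 3 E2 rats lie above all vehicle rats for Inhba and below them for Fst, Bmp7 and Tgfb3, and vehicle rat 1 is the highest vehicle point in every panel.

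**Figure D2:**
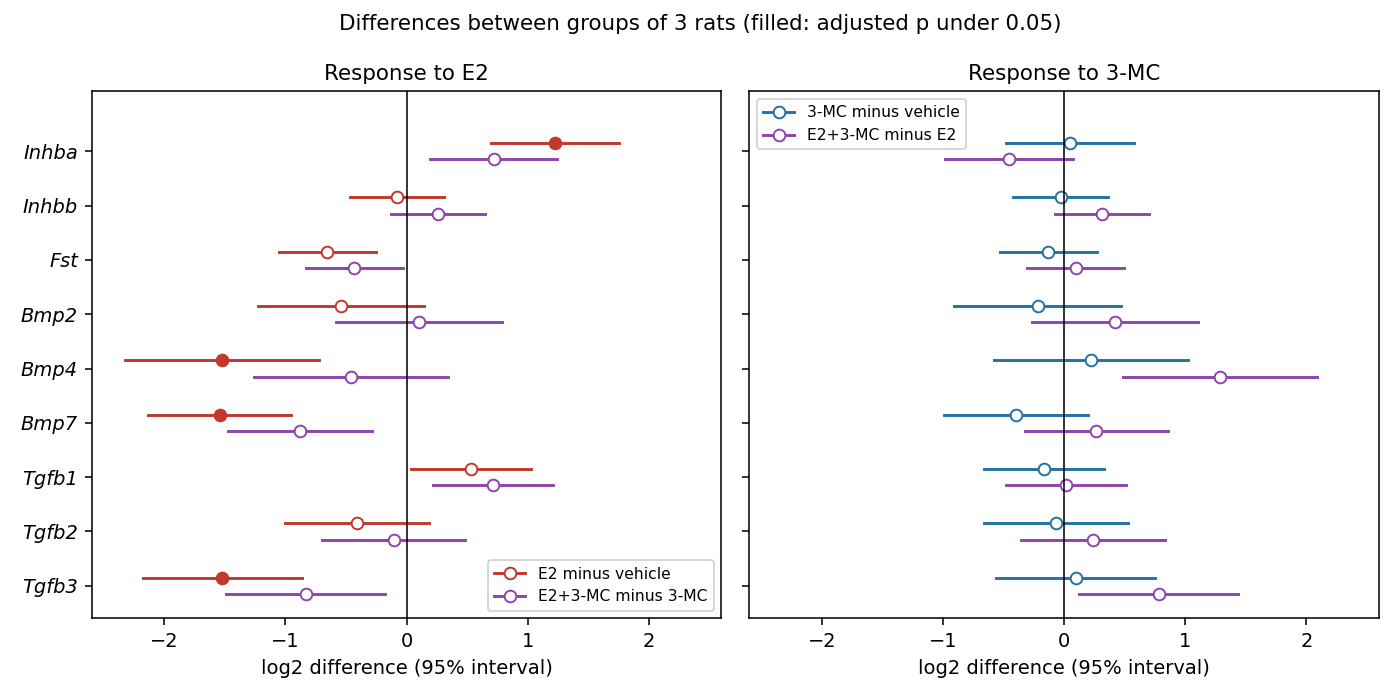
Log2 difference (horizontal axis) of each gene with its 95% interval, for the response to E2 without and with 3-MC (left) and to 3-MC without and with E2 (right), with filled points for an adjusted p under 0.05. Inhba, Bmp4, Bmp7 and Tgfb3 are filled for E2 minus vehicle, and no point is filled in the other 3 comparisons drawn.

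Inhba encodes the beta A subunit, which forms activin A as a homodimer. Its intensity was 130.0, 111 and 109 in vehicle rats 1 to 3 and 416, 220.2 and 274 in E2 rats 1 to 3. Every E2 rat was above every vehicle rat, and E2 rat 1 was the highest of all 12. The log2 difference was 1.23 ± 0.25 (SE, n = 3 per group), or 2.34-fold, with a limma adjusted p of 0.00241. It was 1.30 without vehicle rat 1 and stayed called. With 3-MC alone the values were 129, 120.4 and 114, within the vehicle range. With both compounds they were 221, 139.9 and 294, all above the 3-MC rats, and rat 2 stood closest to the rats without E2. The difference between E2+3-MC and 3-MC was 0.72 ± 0.25, with an adjusted p of 0.0973. Without vehicle rat 1, which enters this comparison only through the shared estimate of spread, the adjusted p was 0.0181, and without rat 2 of the combined group the difference was 0.98 and called.

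Inhbb encodes the beta B subunit of activin B. It lay at 120.2, 118 and 104 in vehicle rats, at 123, 84.0 and 117 in E2 rats, at 119, 106 and 109 in 3-MC rats and at 129, 126 and 156 in rats given both. The groups overlapped except that all E2+3-MC rats were above all others. None of its differences passed the test. For E2 against vehicle the log2 difference was -0.08 ± 0.18, with a 95% interval from -0.47 to 0.31, and the limma adjusted p was 0.798. For E2+3-MC against 3-MC it was 0.26 ± 0.18, with an adjusted p of 0.507. The difference for E2 against vehicle was -0.047 without vehicle rat 1, and its sign turned after quantile normalization (0.057) and after median centring (0.077).

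Fst, whose product binds activins, was among the 30% of genes with the lowest mean intensity and was not tested. Its intensity was 98.5, 57.6 and 75.7 in vehicle rats, 50.02, 37.9 and 39.7 in E2 rats, 83.6, 58.0 and 64.1 in 3-MC rats and 51.0, 46.6 and 41.6 in rats given both. All 6 rats given E2 were below all 6 rats not given it. The log2 difference between E2 and vehicle was -0.65 ± 0.19, and without the filter on dim genes its limma adjusted p was 0.0298. Between E2+3-MC and 3-MC it was -0.43 ± 0.19, with an adjusted p of 0.251 without that filter. Differences of so dim a gene are understated on this scale.

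Bmp7, a BMP ligand of many epithelia, was at 926, 410.4 and 419 in vehicle rats and at 221, 142 and 173 in E2 rats. It did not overlap between these groups. The difference was -1.54 ± 0.28, or 2.91-fold lower with E2, with a limma adjusted p of 0.000947. Without vehicle rat 1, whose value was the highest of the 12, it was -1.17 and still called. In 3-MC rats Bmp7 was at 470.1, 381 and 380.5, and in rats given both at 255, 245 and 157. The combined group was below the 3-MC group in every rat, by a log2 difference of -0.88 ± 0.28 and with an adjusted p of 0.0657. That difference was called after quantile normalization (-1.06) and without vehicle rat 1 or vehicle rat 3 (adjusted p = 0.00105 and 0.0400).

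Bmp4, a ligand expressed in mesenchyme of many organs, was at 259, 176 and 108 in vehicle rats and at 119, 34.3 and 24.6 in E2 rats. E2 rat 1 lay above vehicle rat 3, so the groups overlapped, and E2 rats 2 and 3 were the lowest of the 12. The log2 difference was -1.52 ± 0.38, or 2.87-fold lower, with a limma adjusted p of 0.00994. It was -1.24 and called without vehicle rat 1, but it was not called without E2 rat 2, at -1.34 with an adjusted p of 0.0599, nor without E2 rat 3, at -1.18 with an adjusted p of 0.0776. Bmp4 was at 240, 181 and 191 in 3-MC rats and at 174, 187 and 88.6 in rats given both. These groups overlapped, and the difference of -0.46 ± 0.38 had an adjusted p of 0.593 and was -0.15 without rat 3 of the combined group.

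Bmp2, whose product is needed in the mouse uterus for decidualization, was at 333, 110.3 and 83.4 in vehicle rats and at 122, 83.6 and 88.6 in E2 rats. Vehicle rat 1 was far above the rest. The log2 difference of -0.54 ± 0.33 had a limma adjusted p of 0.270, and it was 0.0084 without vehicle rat 1 and -0.90 (adjusted p = 0.0453) without vehicle rat 3. A direction of Bmp2 between E2 and vehicle therefore depended on single vehicle rats. In 3-MC rats it was at 109, 129 and 137 and in rats given both at 141, 132 and 132. These overlapped, with a difference of 0.10 ± 0.33 and an adjusted p of 0.927.

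Among the TGF-beta genes, Tgfb3 fell with E2, and Tgfb1 lay higher with E2 without passing the test. Tgfb3 was at 360.0, 147 and 138 in vehicle rats and at 93.5, 41.1 and 47.9 in E2 rats. All E2 rats were below all vehicle rats, with rat 1 the highest of each group. The difference was -1.52 ± 0.31, or 2.87-fold lower, with a limma adjusted p of 0.00254, and it was -1.10 and called without vehicle rat 1. Tgfb3 was at 231, 164 and 242 in 3-MC rats and at 119, 127 and 89.0 in rats given both, again with no overlap. That difference was -0.83 ± 0.31, with an adjusted p of 0.125, and it was called after quantile normalization (-0.91) and without vehicle rat 1 (adjusted p = 0.00461).

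Tgfb1, the TGF-beta gene best known for effects on immune cells and matrix, was at 304, 171 and 154 in vehicle rats and at 359.6, 259 and 283 in E2 rats. Only vehicle rat 1 overlapped the E2 rats. The log2 difference was 0.53 ± 0.24, with a limma adjusted p of 0.127. It was called without vehicle rat 1 (0.81, adjusted p = 0.00159), after quantile normalization (0.61) and after median centring (0.69). In 3-MC rats Tgfb1 was at 188, 142 and 208, and in rats given both at 334, 281 and 293. All 3 rats given both were above the 3-MC rats, by 0.72 ± 0.24 with an adjusted p of 0.0768. This was called without vehicle rat 1 or vehicle rat 3 (adjusted p = 0.00278 and 0.0461). It was also called in 4 of 10 alternative settings that left out no single rat (lowest limma adjusted p = 0.00228).

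Tgfb2 was at 468, 243 and 205 in vehicle rats, at 268, 189 and 187 in E2 rats, at 316, 223 and 289.8 in 3-MC rats and at 223, 199 and 360.2 in rats given both. All groups overlapped. For E2 against vehicle the log2 difference was -0.41 ± 0.28, with a 95% interval from -1.004 to 0.18 and a limma adjusted p of 0.335. It was -0.071 without vehicle rat 1 and -0.64 without vehicle rat 3. For E2+3-MC against 3-MC it was -0.11 ± 0.28, with an adjusted p of 0.906.

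Between E2 and vehicle 3 of the 8 tested genes did not overlap between groups (Inhba higher, Bmp7 and Tgfb3 lower), beside 27.2% of all tested genes. Between E2+3-MC and 3-MC 5 of 8 did not overlap, beside 37.3%. These 2 comparisons share no array, although they share the estimate of spread. Inhba, Bmp4, Bmp7, Tgfb1, Tgfb2, Tgfb3 and Fst had the same sign in both, and Inhbb and Bmp2 did not. Leaving out vehicle rat 1 raised the called genes between E2+3-MC and 3-MC from 0 to 4 (Inhba and Tgfb1 higher, Bmp7 and Tgfb3 lower), and over all tested genes from 834 to 2178.

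**Figure D3:**
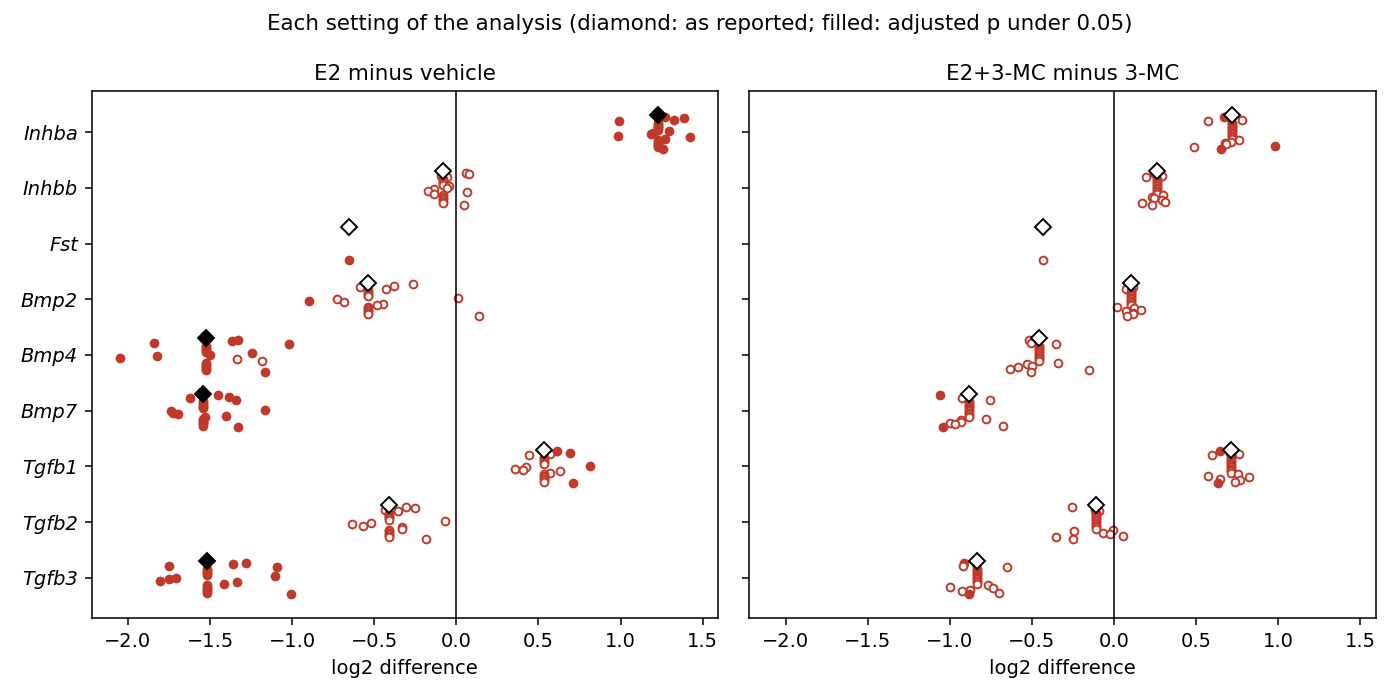
Log2 difference (horizontal axis) of each gene under every alternative setting and with each rat left out, for E2 minus vehicle (left) and E2+3-MC minus 3-MC (right), with a diamond for the reported value and filled symbols for an adjusted p under 0.05. Inhba, Bmp7 and Tgfb3 are filled at every setting on the left, and Bmp2 crosses 0 there.

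3-MC alone changed none of the 9 genes detectably. Against vehicle the log2 differences ran from -0.40 (Bmp7, 95% interval -0.99 to 0.19) to 0.23 (Bmp4, 95% interval -0.58 to 1.03), 0 of 8 tested genes were without overlap between the groups (3.1% of all tested genes), and 0 of 8 genes were called by limma, with 0 at an unadjusted p under 0.05. Over all tested genes 0 were called and 0.808% had an unadjusted p under 0.05. Without vehicle rat 1 the difference of Bmp7 was -0.021 and that of Bmp4 was 0.50, and without vehicle rat 3 that of Bmp4 was -0.072. Bmp2 differed by -0.22, and by 0.33 without vehicle rat 1. The 95% interval was -0.48 to 0.58 for Inhba and -0.56 to 0.75 for Tgfb3, both short of the difference seen with E2. Without vehicle rat 1 the difference of Tgfb3 was 0.51, and its interval was not recomputed.

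In rats given E2, addition of 3-MC went with higher values of Bmp4 and Tgfb3, but no gene was called. Bmp4 was at 174, 187 and 88.6 with both compounds against 119, 34.3 and 24.6 with E2 alone. E2 rat 1 lay within the range of the combined group, and the other E2 rats lay below it. The log2 difference was 1.29 ± 0.38, with an unadjusted p of 0.00341 and a limma adjusted p of 0.488, and 9.23% of all tested genes had an unadjusted p under 0.05. Tgfb3 differed by 0.78 ± 0.31, with an unadjusted p of 0.0228 and an adjusted p of 0.515, and only E2 rat 1 overlapped the combined group. The remaining differences were smaller: -0.46 for Inhba, 0.31 for Inhbb, 0.42 for Bmp2, 0.27 for Bmp7, 0.02 for Tgfb1, 0.24 for Tgfb2 and 0.09 for Fst. Single rats of these groups moved them, Inhba to between -0.69 and -0.19 and Bmp7 to between 0.13 and 0.47. All 3 rats of the combined group were above all E2 rats for Inhbb and Bmp2, 2 of 8 tested genes, beside 17.9% of all tested genes. The array medians of the groups did not overlap either, and the median difference over all tested genes was 0.15. After median centring Bmp4 differed by 1.04 and Tgfb3 by 0.53. A fit of these 2 groups alone called both genes (adjusted p = 0.0105 and 0.0468), and leaving out vehicle rat 1 called Bmp4 (adjusted p = 0.0413).

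The interaction asks whether the effect of 3-MC differed with and without E2. Its estimate was 1.07 ± 0.54 for Bmp4, 0.69 ± 0.44 for Tgfb3, 0.66 ± 0.40 for Bmp7, 0.64 ± 0.46 for Bmp2 and -0.51 ± 0.35 for Inhba, and smaller for the rest. Without vehicle rat 1 it was 0.79 for Bmp4, 0.27 for Tgfb3, 0.29 for Bmp7 and 0.094 for Bmp2. Without E2 rat 1 it was -0.27 for Inhba, and without rat 2 of the combined group -0.24. None was called, the smallest unadjusted p was 0.0634 (Bmp4), and the limma adjusted p was 0.977 for every gene tested of the 8. Over all tested genes 0 were called and 2.93% had an unadjusted p under 0.05. A weaker response to E2 in the presence of 3-MC was therefore not shown for any of them.

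Against vehicle, rats given both compounds had 1 of 8 genes called, near the 7.84% of all tested genes called (1.78% lower), so nothing is read from the count. Bmp7 fell by 1.28 on the log2 scale (SE 0.28, limma adjusted p = 0.00741), a call that was lost without rat 3 of the combined group (adjusted p = 0.0567). Of the 8 tested genes 4 did not overlap, beside 17.9% of all tested genes. Inhba was higher in every rat, by 0.77 ± 0.25 with an adjusted p of 0.0744, and Tgfb3 lower in every rat, by -0.74 ± 0.31 with an adjusted p of 0.199, or by -0.32 without vehicle rat 1. Bmp4 differed by -0.23 ± 0.38 and Tgfb1 by 0.55 ± 0.24, with overlap and adjusted p of 0.851 and 0.206. The difference of Bmp4 was 0.046 without vehicle rat 1 and -0.53 without vehicle rat 3. Without vehicle rat 1 the genes called were Inhba (0.84), Bmp7 (-0.90) and Tgfb1 (0.83), and Inhba was also called without rat 2 of the combined group (1.03).

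The other genes of the pathway were taken from 6 lists with 100 genes, of which 84 had a probe set of their own and 68 were tested. With E2 against vehicle 4 rose and 14 fell, with a median log2 difference of -0.34. Over all tested genes 8.7% were called higher and 9.44% lower, and the median was -0.11. With E2+3-MC against 3-MC 4 rose and 6 fell, with a median of 0.03, beside 6.82% higher, 1.39% lower and a median of 0.08 over all tested genes. The counts of each list below stand beside these same shares and medians. The 4 rises were all among extracellular binding proteins, and 8 of the 14 falls with E2 against vehicle were among genes that respond to BMP and TGF-beta. Among these rises, Grem1 and Ltbp2 passed the filter on dim genes only through the groups given E2. After quantile normalization rises were also found among response genes (3), receptors (2) and Smads and regulators (1). Between 3-MC and vehicle, between E2+3-MC and E2, and for the interaction 0 of 68 were called.

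**Figure D4:**
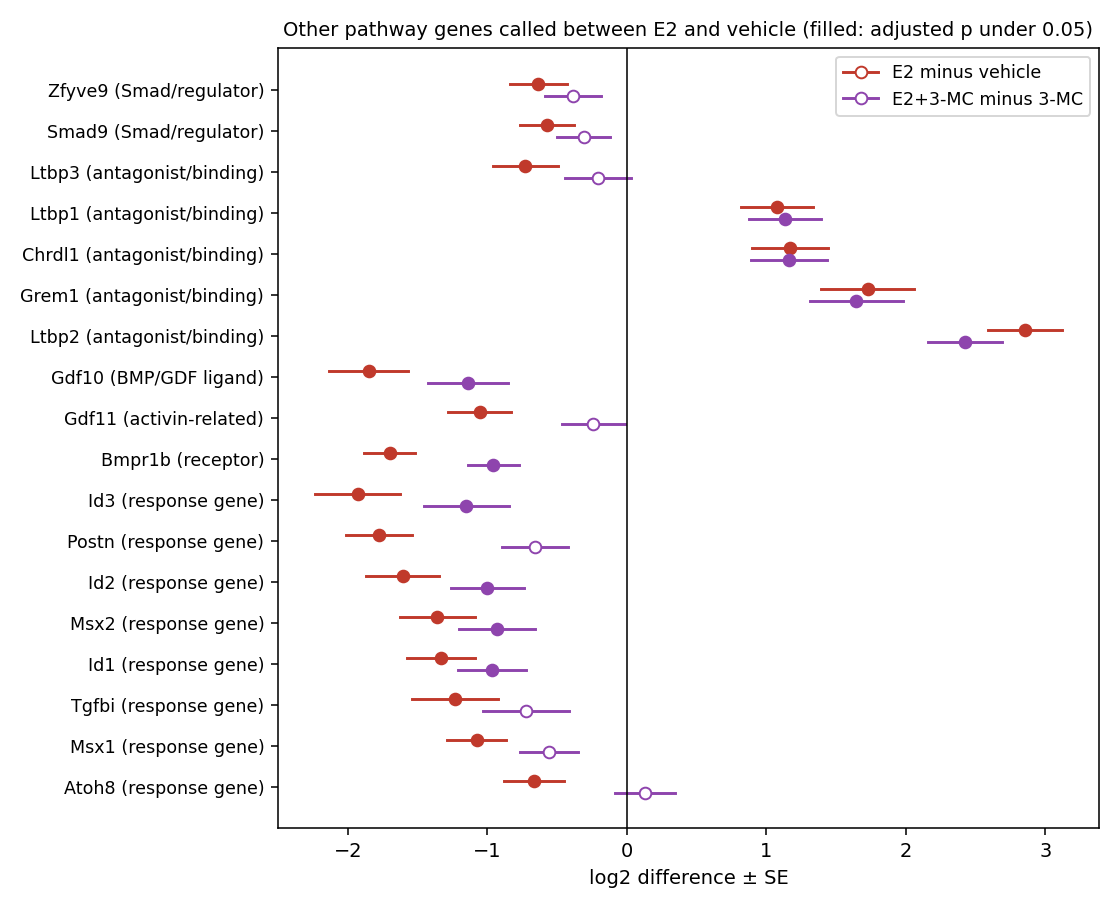
Log2 difference ± SE (horizontal axis) of the 18 other pathway genes called between E2 and vehicle, beside the same genes between E2+3-MC and 3-MC, with filled points for an adjusted p under 0.05. Ltbp1, Chrdl1, Grem1 and Ltbp2 lie to the right in both comparisons, and the response genes lie to the left between E2 and vehicle.

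Of 17 tested extracellular antagonists and binding proteins, 4 rose and 1 fell with E2 against vehicle, with a list median of -0.07 against -0.11 over all tested genes. Ltbp2, a latent TGF-beta binding protein family member of the elastic matrix, was at 33.7, 64.8 and 36.8 in vehicle rats and at 440, 389 and 417 in E2 rats. The groups were far apart, with a log2 difference of 2.85 ± 0.26 and a limma adjusted p of 7.37e-07. Grem1, the BMP antagonist gremlin 1, was at 47.1, 23.5 and 37.7 in vehicle rats and at 249.7, 138 and 102 in E2 rats, a difference of 1.73 ± 0.33 with an adjusted p of 0.00158. Chrdl1, chordin-like 1, another BMP antagonist, differed by 1.17 ± 0.27, and Ltbp1, which binds latent TGF-beta, by 1.08 ± 0.26, with adjusted p of 0.00651 and 0.00786. Every E2 rat was above every vehicle rat for these 4 genes. Grem1 and Ltbp2 passed the filter on dim genes (mean log2 value over 6.44) only through the groups given E2. Without E2 their group means were below that limit, at 5.68 with vehicle and 5.52 with 3-MC for Grem1. For Ltbp2 they were 5.90 and 6.08.

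The same 4 genes rose between 3-MC and E2+3-MC, with no fall among the 17. Ltbp2 was at 44.4, 51.5 and 60.2 in 3-MC rats and at 265, 272 and 577 in rats given both, a log2 difference of 2.42 ± 0.26 with a limma adjusted p of 8.69e-06. Grem1 was at 26.6, 27.4 and 36.6 and at 161, 62.5 and 198, a difference of 1.64 ± 0.33 with an adjusted p of 0.00413. Chrdl1 differed by 1.16 and Ltbp1 by 1.13. Ltbp2 and Grem1 were called with every rat left out in turn, Chrdl1 was not called without 3-MC rat 2 or rat 3 of the combined group, and Ltbp1 was not called without those or without 3-MC rat 1. After quantile normalization the list had 6 rises and 3 falls with E2 against vehicle. Ltbp3 fell by 0.73 with E2 against vehicle (limma adjusted p = 0.0396), a call that remained with 4 of the 12 rats left out in turn, with a difference of -0.45 without vehicle rat 1, and differed by -0.21 between E2+3-MC and 3-MC.

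Of 18 tested response genes, 8 fell and 0 rose with E2 against vehicle, with a list median of -0.64 against -0.11 over all tested genes. Id3, a direct target of BMP signalling that inhibits other transcription factors, was at 887, 342 and 308 in vehicle rats and at 110.5, 106 and 107 in E2 rats. No rat overlapped, and the log2 difference was -1.93 ± 0.30 with a limma adjusted p of 2.69e-04. It was -1.46 without vehicle rat 1. Its relative Id2 fell by 1.61 (adjusted p = 3.59e-04), and Msx2, a homeobox gene induced by BMPs, fell by 1.36 (adjusted p = 0.00206). Postn, which encodes the matrix protein periostin and responds to TGF-beta, was at 1914, 1244 and 1195 in vehicle rats and at 486, 362 and 369 in E2 rats. That difference was -1.78 ± 0.24, with an adjusted p of 4.78e-05. After quantile normalization 3 response genes rose and 10 fell, and without vehicle rat 1 it was 3 and 7.

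Between 3-MC and E2+3-MC 4 response genes fell and 0 rose, with a list median of -0.45 against 0.08 over all tested genes, and these were Id1, Id2, Id3 and Msx2. Id3 was at 319, 338 and 392.1 in 3-MC rats and at 126, 209 and 123 in rats given both, a log2 difference of -1.15 ± 0.30 with a limma adjusted p of 0.0242. Id1 was at 294, 294 and 349 and at 131, 172 and 154, a difference of -0.97 ± 0.24 with an adjusted p of 0.0182. Both genes were lower in every rat given both compounds. With the 12 rats left out in turn, Id2 was called in 8 fits, Id1 and Id3 in 7, and Msx2 in 4 (limma adjusted p up to 0.181). The count of the list depended on single rats. It was 13 without vehicle rat 1, with 4 higher and 9 lower, beside 1739 higher and 439 lower over all tested genes. It was 0 without any one of the 3-MC rats and 0 without rat 3 of the combined group. Against vehicle, the combined group had 5 response genes called lower and 0 higher, with a list median of -0.38. Over all tested genes 1.78% were called lower and 6.06% higher in that comparison, with a median of 0.05. Among the 5 were Id3 (-1.52), Id1 (-1.26), Msx2 (-1.22) and Id2 (-1.17). Without vehicle rat 1 the count was 4 higher and 5 lower, beside 2484 higher and 219 lower over all tested genes. After quantile normalization the count between E2+3-MC and 3-MC was 3 higher and 12 lower.

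**Figure D5:**
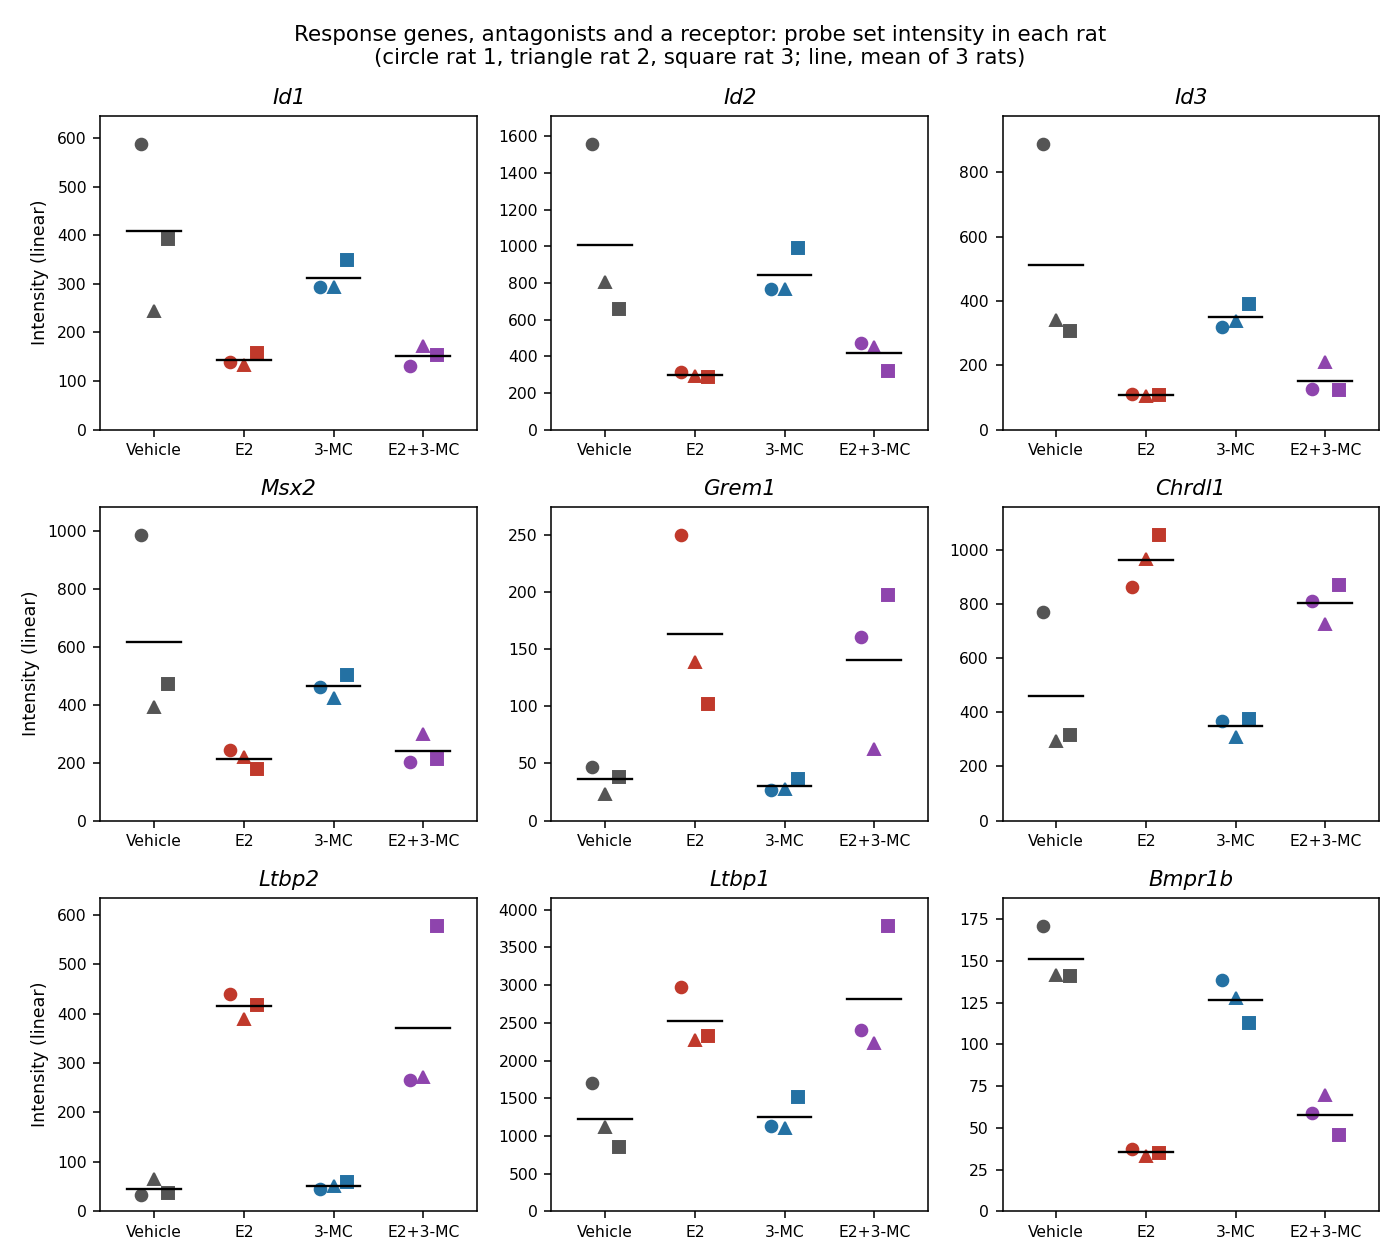
Probe set intensity (linear, vertical axis from 0) of 4 response genes (Id1, Id2, Id3, Msx2), 4 extracellular binding proteins (Grem1, Chrdl1, Ltbp2, Ltbp1) and the receptor gene Bmpr1b in each rat by group, with a line at the mean of 3 rats. The E2 and E2+3-MC rats lie low for the response genes and Bmpr1b and high for Grem1 and Ltbp2.

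Of 13 tested receptors and co-receptors, 1 fell and 0 rose with E2, with a list median of -0.08 against -0.11 over all tested genes. After quantile normalization 2 rose and 5 fell, without vehicle rat 3 there were 3 falls and 0 rises, and without vehicle rat 1 there was 1 of each. Bmpr1b, a type I BMP receptor, was at 171, 142 and 141 in vehicle rats, at 37.4, 33.4 and 35.2 in E2 rats, at 138, 128 and 113 in 3-MC rats and at 58.7, 69.5 and 45.6 in rats given both. All 6 rats given E2 were below all 6 rats not given it. The log2 difference was -1.70 ± 0.18 for E2 against vehicle (limma adjusted p = 4.63e-06) and -0.96 ± 0.18 for E2+3-MC against 3-MC (adjusted p = 0.00259). It was called in both with every rat left out in turn. Tgfbr1 differed by -0.08 between E2 and vehicle, and Tgfbr2 has no probe set annotated with its symbol alone.

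Of 13 tested Smads and regulators, 2 fell and 0 rose with E2: Smad9, a BMP-regulated Smad, by 0.57 (limma adjusted p = 0.0489) and Zfyve9, which presents Smads to the TGF-beta receptor, by 0.63 (adjusted p = 0.0395). Each of these calls was lost with 9 of the 12 rats left out in turn, and after quantile normalization the list had 1 rise and 6 falls. The list median was -0.30. The count was 4, all lower, without vehicle rat 3, stayed at 2 without vehicle rat 1 or E2 rat 1, and was 0 or 1 without any one of the other rats. Between 3-MC and E2+3-MC 0 of 13 were called.

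Among the other ligands, Gdf10 fell with E2. It was at 323, 165 and 119 in vehicle rats, at 51.3, 40.7 and 30.2 in E2 rats, at 177, 133 and 139 in 3-MC rats and at 82.8, 48.4 and 49.7 in rats given both. Every rat given E2 was below every rat not given it. The log2 difference was -1.85 ± 0.28 with a limma adjusted p of 2.10e-04 for E2 against vehicle, and -1.14 ± 0.28 with an adjusted p of 0.0172 for E2+3-MC against 3-MC. The second call was lost without 3-MC rat 1, without 3-MC rat 2, and without rat 2 or rat 3 of the combined group (adjusted p up to 0.0976). Gdf10 was the only one called in either comparison among 6 tested genes of the BMP, GDF and Nodal-family list. That list includes Bmp1, which encodes a protease and not a ligand. Without vehicle rat 1, vehicle rat 3 or E2 rat 1, 2 of these 6 genes were called lower between E2 and vehicle. Gdf11, an activin-like ligand, was at 419, 314 and 286 in vehicle rats and at 224, 149 and 106 in E2 rats, a difference of -1.05 ± 0.23 with an adjusted p of 0.00342. With 3-MC it was at 352, 338 and 362 and with both at 293, 296 and 293, a difference of -0.24 with an adjusted p of 0.655.

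Among rats given E2, Postn and Gdf11 lay higher where 3-MC was added, without passing the test. Postn was at 968, 1268 and 1277 with both compounds, above every E2 rat, by 1.49 ± 0.24 on the log2 scale. Its unadjusted p was 7.64e-06 and its limma adjusted p of 0.0775 was the smallest of all 10154 genes. Gdf11 differed by 0.87 ± 0.23, with an unadjusted p of 0.00119 and an adjusted p of 0.488. Postn was called after quantile normalization (1.35, adjusted p = 0.00800), with trend and robust options (adjusted p = 0.0346) and without vehicle rat 1, vehicle rat 3, 3-MC rat 3 or rat 3 of the combined group (adjusted p from 3.45e-04 to 0.0471). Gdf11 was called without vehicle rat 1 (adjusted p = 0.0266). The interaction was 1.12 ± 0.33 for Postn and 0.81 ± 0.32 for Gdf11, both with an adjusted p of 0.977.

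Markers of several cell types moved with E2 as well. Their counts for E2 against vehicle, here and in the next paragraph, stand beside 8.7% of all tested genes called higher and 9.44% lower. Without vehicle rat 1 the calls over all tested genes were 2411 higher and 1135 lower. Epithelial markers summed to between 3459 and 7401 intensity units in vehicle rats and between 13652 and 16036 in E2 rats, with 6 of 9 called higher. Endothelial markers summed to 2415 to 4797 and 1626 to 1788, with 6 of 7 lower, and mesothelial markers to 1156 to 2320 and 535 to 722, with all 3 tested lower. Macrophage markers summed to 865 to 2149 and 2049 to 3256, with 4 of 7 higher, or 7 of 7 without vehicle rat 1. The E2 group thus had high epithelial and macrophage markers together with low endothelial and mesothelial markers. In this same group Inhba and Tgfb1 lay high, and Bmp4, Bmp7, Tgfb3, Gdf10 and the Id genes lay low. A shared direction in 1 group does not assign a gene to a cell type. The part of these cells in the results was not tested.

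Of 10 marker lists, 5 had higher sums in every E2+3-MC rat than in every E2 rat, where 16.7% of all tested genes were higher without overlap. These were endothelium (1942 to 2063 with both compounds), mesothelium (892 to 1055), adipocytes, and the ciliated cell (191 to 228 against 139 to 187) and granulosa cell (166 to 232 against 125 to 155) markers. Of the 3 granulosa cell markers 2 were below the limit for dim genes, and of the 2 ciliated cell markers 0 were. The array medians of these groups differed in the same direction. Between them 0 of all tested genes were called, the tested markers included. Bmp4, Tgfb3, Postn and Gdf11 thus lay higher in the group where all of these sums were higher, and the part of these cells was not tested. Adipocyte markers summed to between 2202 and 14710 in vehicle rats, with the highest in rat 1, to between 2535 and 2803 in E2 rats, to between 768 and 5862 in 3-MC rats and to between 3650 and 7426 in rats given both. With E2 against vehicle, 4 of 6 tested adipocyte markers were called lower, or 1 of 6 after median centring or without any one E2 rat. Stromal markers had 2 of 9 called higher, myometrial markers 2 of 8 (4 without vehicle rat 1), blood and platelet markers 2 of 4 lower, ciliated cell markers 1 of 2 lower and granulosa cell markers 0 of 1. Without vehicle rat 3, stromal markers had 2 called higher and 2 lower.

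The genes closest to each ligand over the 12 arrays were found by the root mean square difference of log2 values, after each gene was centred on its mean, among 10153 other tested genes. For Inhba they were Sft2d2, Anxa3 and Prrg4, at 0.135 to 0.136. For Bmp7 they were Galm, Rtn4rl1 and Sema5a, at 0.137 to 0.161, and for Tgfb3 they were Fmo2, Kcnn3 and Nr1d1, at 0.119 to 0.182. Bmp4 had more distant neighbours, Ebf4, Tgfb3 and Amph, at 0.334 to 0.362, so Tgfb3 was the second closest of all genes to Bmp4, but after quantile normalization 0 of these 3 remained among its neighbours. Tgfb1 lay next to Acadm, Rcn1 and Copg1 at 0.0814 to 0.0871, and Tgfb2 next to Lig3, Terf2 and Ppfibp1 at 0.115 to 0.122. Inhbb lay next to Tprkb, Parp6 and Ggps1 at 0.0927 to 0.0974, and Bmp2 next to Cybrd1, Cdkn2c and Colec12 at 0.103 to 0.119. All 12 values of a pair share the scale of each array, and after quantile normalization at most 1 of the 3 neighbours of any gene was the same.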

How the data were processed

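Whole-uterus RNA of 12 rats was hybridised to Affymetrix arrays, 1 per rat. The authors deposited linear probe set intensity values from PLIER in Affymetrix Expression Console, per the submitters' processing notes, without versions. Neither the normalization between arrays nor the genome build is given in the sources used here. Names came from the platform annotation: of 29214 probe sets, 15310 have 1 symbol, 323 several and 13581 none here; 15303 of the symbols are current in RefSeq (GRCr8). For 527 genes with several probe sets, the one with the highest mean was kept.

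Values were transformed as log2(intensity + 16), which understates changes of dim genes. The 30% dimmest genes (mean under 6.44) were left out. All 12 arrays entered limma 3.58.1 (R 4.3.3; lmFit and eBayes, 1 mean per group, 8 residual and 8.92 prior degrees of freedom), with two-sided p-values adjusted by Benjamini-Hochberg. There were 6 comparisons; the interaction subtracts the 3-MC effect without E2 from that with E2. The fit was tested on simulated data. Rat numbers name different animals, and p-values rest on the spread between rats. No 2 arrays were identical.

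The members, gene lists and tests were chosen with earlier results of these data known. From each pathway list and comparison, up to 4 called genes with the largest differences are named, or up to 2 by value where none was called, with Tgfbr1 and Tgfbr2 added after the values were seen. Alternatives were the normalization, the offset, the dim filter, the probe set rule, the variance model, the samples fitted, a replicate block and each rat left out.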

Additional observations from a re-analysis of the deposited data

How the results depend on the processing

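Between E2 and vehicle, Inhba, Bmp7 and Tgfb3 were called with each rat left out in turn and under every other alternative they were tested in. The count of the 9 genes called ran from 3 to 5 with single rats left out and was 2 with 50% of genes left out as dim, a setting that tests fewer genes. Between E2+3-MC and vehicle it was 4 after quantile normalization, 3 with vehicle rat 1 left out as well (an alternative chosen after seeing the data), 2 with trend and robust options, 2 with a replicate block and 0 with the 2 groups fitted alone, with 0 to 3 by single rats. Between E2+3-MC and E2 it was 2 with these groups fitted alone and 0 to 1 by single rats. Between E2+3-MC and 3-MC it was 4 after quantile normalization with or without vehicle rat 1, 2 after median centring, 4 with a replicate block and 4 with these groups fitted alone, with 0 to 4 by single rats. For 3-MC minus vehicle and the interaction it was 0 to 0 by single rats. Calls over all 10154 tested genes moved as well. Between E2+3-MC and vehicle they were 796 as reported, 2650 after quantile normalization and 3346 with vehicle rat 1 left out as well. They were 872 with trend and robust options, 1089 with a replicate block and 296 with the 2 groups alone. Between E2+3-MC and E2 they were 0 as reported and 144 with these groups alone. With 50% of genes left out as dim, 1183 of 7253 were called between E2 and vehicle. The cause was not tested.

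The rat numbers name different animals in each group. Of 18 same-number pairs 8 had a correlation of deviations over 0.1 (-0.27 to 0.24). Of 12 arrays 2 had their highest such correlation outside their group with an array of the same number. These counts do not decide whether rats of the same number share anything. With the replicate block 4 genes were called between E2 and vehicle. Without the block the calls over all tested genes between E2 and vehicle were 1842, against 2545 with it. They were 3904 after quantile normalization and 3546 without vehicle rat 1. Between E2+3-MC and 3-MC they were 834 (693 higher, 141 lower), and 2647 after quantile normalization (1389 higher, 1258 lower). Quantile normalization without vehicle rat 1 gave 3464, median centring 1156, a replicate block 1140 and the 2 groups alone 2270. With single rats left out the calls ran from 412 to 2178, and from 445 to 2703 between E2+3-MC and vehicle.

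Signs turned only for values that were not called. After quantile normalization these were Inhbb 0.057 (E2 minus vehicle), Inhba -0.0074 and Tgfb2 0.0082 (3-MC minus vehicle) and Tgfb1 -0.11 (E2+3-MC minus E2). After median centring they were Inhbb 0.077, Inhba -0.030, Tgfb1 -0.23 and Tgfb2 -0.0082 in the same comparisons, the last in E2+3-MC minus E2. After quantile normalization without vehicle rat 1 they were Inhbb 0.045 and Bmp2 0.14 (E2 minus vehicle), Bmp2 0.23 and Tgfb2 0.13 (3-MC minus vehicle), Bmp2 0.31 (E2+3-MC minus vehicle), Tgfb1 -0.11 (E2+3-MC minus E2), and Bmp2 -0.057, Tgfb1 -0.075 and Tgfb2 -0.066 (interaction). With single rats left out, signs turned in these ranges: E2 minus vehicle, Inhbb -0.17 to 0.067 and Bmp2 -0.90 to 0.0084; 3-MC minus vehicle, Inhbb -0.086 to 0.0042, Bmp2 -0.58 to 0.33, Bmp4 -0.072 to 0.50, Tgfb1 -0.34 to 0.12, Tgfb2 -0.29 to 0.27 and Tgfb3 -0.13 to 0.51. Further ranges were, for E2+3-MC minus vehicle, Bmp2 -0.48 to 0.43, Bmp4 -0.53 to 0.071 and Tgfb2 -0.41 to 0.17. For E2+3-MC minus E2 they were Tgfb1 -0.078 to 0.15 and Tgfb2 -0.0041 to 0.40, for E2+3-MC minus 3-MC Tgfb2 -0.35 to 0.052, and for the interaction Tgfb1 -0.10 to 0.36 and Tgfb2 -0.036 to 0.53.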
